A study of Mus musculus with 8 samples.

Results

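Cytochrome c oxidase, or complex IV, is the last enzyme of the mitochondrial respiratory chain, and 8 genes that encode isoforms of its subunits are described here. They were taken by symbol from the 16538 genes of the expression table, and all 8 were listed: Cox6a1, Cox6a2, Cox4i1, Cox4i2, Cox7a1, Cox7a2, Cox7a2l and Cox8a. Cox6a2 was chosen by its RPKM difference between the genotypes in these same libraries, so the values of the 8 genes are given as a description, with no test.

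The libraries were made from DN3 thymocytes of C57BL/6 mice at 6 weeks of age. DN3 cells are CD4-CD8- double negative thymocytes that are CD44-CD25+ and this is the stage at which β-selection, the checkpoint for a working T cell receptor β chain, begins. The 4 control libraries carried the Sel1l-f/f genotype and the 4 Sel1l CKO libraries Sel1l-f/f hCD2cre+. SEL1L is the adaptor of the HRD1 ubiquitin ligase in endoplasmic reticulum associated degradation, and the human CD2 promoter turns on the iCre transgene in early thymic progenitors. Both groups share the floxed Sel1l alleles, and only the Sel1l CKO mice carry Cre, so the deletion and the transgene cannot be told apart. The study counts its replicates as independent biological ones, and whether cells of several animals were pooled in a library is not given in the sources used here.

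Complex IV passes electrons from cytochrome c to oxygen and pumps protons as it does so. Its catalytic core is encoded by mitochondrial DNA, and the smaller subunits around it are encoded in the nucleus, several of them by more than 1 gene. COX6A2 and COX7A1 are the isoforms of subunits 6A and 7A typical of heart and skeletal muscle, while COX6A1 and COX7A2 are found in most tissues. COX4I1 is the ubiquitous form of subunit 4 and COX4I2 is best known from lung, COX8A is the ubiquitous form of subunit 8, and COX7A2L takes part in joining complex III to complex IV.

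The coding sequences of the Cox6a pair are shown because the comparison turns on telling their reads apart. They were read 5′ to 3′ from the GENCODE M21 transcripts of GRCm38, and capitals mark bases that differ from the other gene of the pair, or have no counterpart in it, when the sequences are aligned codon by codon. Cox6a2 is shown whole and Cox6a1 from base 46 of its coding sequence to base 339, the last.
Cox6a1: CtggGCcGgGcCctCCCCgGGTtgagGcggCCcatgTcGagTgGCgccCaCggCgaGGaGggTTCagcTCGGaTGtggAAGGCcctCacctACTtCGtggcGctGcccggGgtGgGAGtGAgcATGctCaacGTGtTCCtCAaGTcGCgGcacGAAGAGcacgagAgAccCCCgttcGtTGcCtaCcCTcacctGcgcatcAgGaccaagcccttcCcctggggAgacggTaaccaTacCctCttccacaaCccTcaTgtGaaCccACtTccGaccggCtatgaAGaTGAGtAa
Cox6a2: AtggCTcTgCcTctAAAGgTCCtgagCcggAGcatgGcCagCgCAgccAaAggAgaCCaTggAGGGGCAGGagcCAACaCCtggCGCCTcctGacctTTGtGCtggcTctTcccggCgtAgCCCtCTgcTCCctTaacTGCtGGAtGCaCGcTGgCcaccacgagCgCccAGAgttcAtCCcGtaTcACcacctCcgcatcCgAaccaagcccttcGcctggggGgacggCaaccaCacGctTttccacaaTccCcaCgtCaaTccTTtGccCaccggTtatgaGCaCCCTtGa
The Cox6a1 coding sequence has 339 bases and lies on the minus strand between the start and stop codons at chr5:115345843-115348950, introns included. The Cox6a2 coding sequence has 294 bases on the minus strand within chr7:128205729-128206295. Of the 288 aligned bases 177 were identical (61.5%), and the longest identical run was 12 bases. The other pairs were as far apart, with 59.7% identity between Cox7a1 and Cox7a2, 59.2% between Cox4i1 and Cox4i2 and 50.6% between Cox7a2 and Cox7a2l.

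The table gives reads per kilobase of gene scaled to the total reads counted on genes in the library (RPKM). Control libraries held 35191350 to 47778587 such reads and Sel1l CKO libraries 32900251 to 50401356. Sel1l itself, the targeted gene, measured 1.83, 1.66, 1.61 and 1.57 RPKM across the control libraries and 0.917, 0.876, 1.32 and 1.23 RPKM across the Sel1l CKO libraries (replicates 1 to 4 here and below), a lower level in each Sel1l CKO library (adjusted p = 0.0327, limma). The DN3 markers Il2ra and Ptcra were present in both groups, at 17.5 ± 0.689 and 27.3 ± 2.17 RPKM in control libraries and 19.6 ± 2.54 and 21.1 ± 4.27 in Sel1l CKO libraries (mean ± SD, n = 4). Of 17 DN3 markers 0 were called by limma or limma voom. By limma 8 had an unadjusted p under 0.05, all 8 with lower means in Sel1l CKO libraries, against 1356 of all 6512 genes tested in either direction. The Sel1l CKO values of 5 markers lay below control in every library, against 5.59% of all genes tested. The part of these levels in the results below was not tested.

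Cox6a2 was close to absent from control DN3 thymocytes and prominent in Sel1l CKO DN3 thymocytes. It stood at 0.608, 0.922, 0.183 and 0.541 RPKM in control replicates 1 to 4. In Sel1l CKO replicates 1 to 4 it stood at 10.6, 52.5, 22.9 and 22.0 RPKM. The groups did not overlap, and the lowest Sel1l CKO library was 11.5-fold above the highest control library. The means were 0.563 ± 0.303 RPKM (control) and 27.0 ± 17.9 RPKM (Sel1l CKO; SD, n = 4), a ratio of means of 48.0, which was 32.9 without Sel1l CKO replicate 2. The log2 difference of RPKM + 0.1 was 5.27 ± 0.50 (moderated SE, limma), the rank 2 rise among 6512 genes with a mean of at least 1 RPKM. Cox6a2 passed that minimum only through the Sel1l CKO libraries. Its SE by limma voom on the recovered reads was larger, at 1.23.

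Both groups varied widely in Cox6a2. Sel1l CKO replicate 2 was 4.94-fold above Sel1l CKO replicate 1, and control replicate 2 was 5.03-fold above control replicate 3. The control values rest on few reads. RPKM steps of 1 read gave 23, 41, 6 and 19 Cox6a2 reads in control replicates 1 to 4, and the 6 reads of control replicate 3 have an exact Poisson 95% interval of 2.20 to 13.1, which covers counting error only. The Sel1l CKO libraries held 375, 2465, 703 and 673 reads in the same order. Taking replicates 1 and 2 alone gave a log2 difference of 4.81, and replicates 3 and 4 alone gave 5.73.

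**Figure D1:**
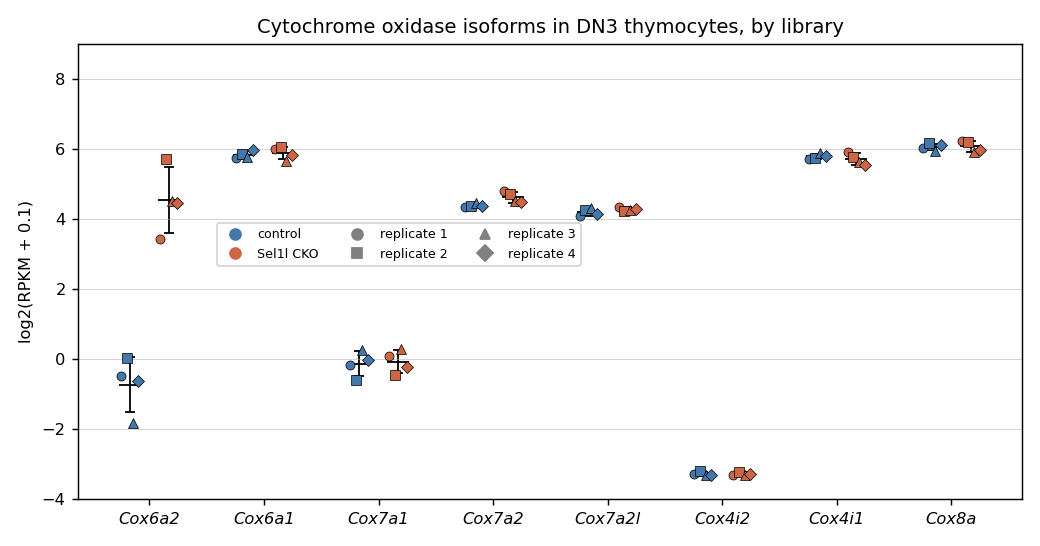
Levels of the 8 isoform genes as log2(RPKM + 0.1), 1 point per library, with marker shape for the replicate, colour for the genotype and black bars for the mean ± SD of 4 libraries. Cox6a2 sits between 0.183 and 0.922 RPKM in control libraries and between 10.6 and 52.5 RPKM in Sel1l CKO libraries, while the ratio of group means of the other 7 genes runs from 0.849 (Cox4i2) to 1.18 (Cox7a2).

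Cox6a1, the ubiquitous partner, was high in every library. It measured 53.5, 57.3, 54.2 and 62.7 RPKM across the control libraries and 63.2, 67.1, 50.7 and 56.6 RPKM across the Sel1l CKO libraries. These ranges overlapped, and the log2 difference was 0.06 ± 0.10 (SE). The means of Cox6a1, 56.9 ± 4.18 RPKM (control) and 59.4 ± 7.23 RPKM (Sel1l CKO), differed by less than the spread between libraries (SD, n = 4).

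The balance of the pair was taken as Cox6a2 over the sum of Cox6a1 and Cox6a2 within each library, which cancels depth. As deposited, Cox6a2 made up 1.12%, 1.58%, 0.337% and 0.856% in control replicates 1 to 4. It made up 14.4%, 43.9%, 31.2% and 28.0% in Sel1l CKO replicates 1 to 4. The order of the Sel1l CKO libraries was that of the Cox6a2 level, with replicate 2 highest and replicate 1 lowest. These shares depend on the length used, because the RPKM values divide by the whole gene with its introns, at a length of 931 bases for Cox6a2 (solved from the values) and 3340 bases for Cox6a1.

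When recovered reads were divided by exon length instead, 680 bases for Cox6a2 and 702 bases for Cox6a1, the share was smaller. It was 0.326%, 0.461%, 0.0971% and 0.248% in control replicates 1 to 4 and 4.62%, 18.4%, 11.5% and 10.04% in Sel1l CKO replicates 1 to 4. The mean share was 0.283 ± 0.152% in control and 11.1 ± 5.67% in Sel1l CKO libraries (SD, n = 4), against 0.975 ± 0.521% and 29.4 ± 12.1% as deposited. On both scales Cox6a1 remained the larger part of the pair in each of the 8 libraries. The sum of the pair per exon length was 255 to 299 RPKM in control libraries and 273 to 391 RPKM in Sel1l CKO libraries, and these ranges overlapped.

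**Figure D2:**
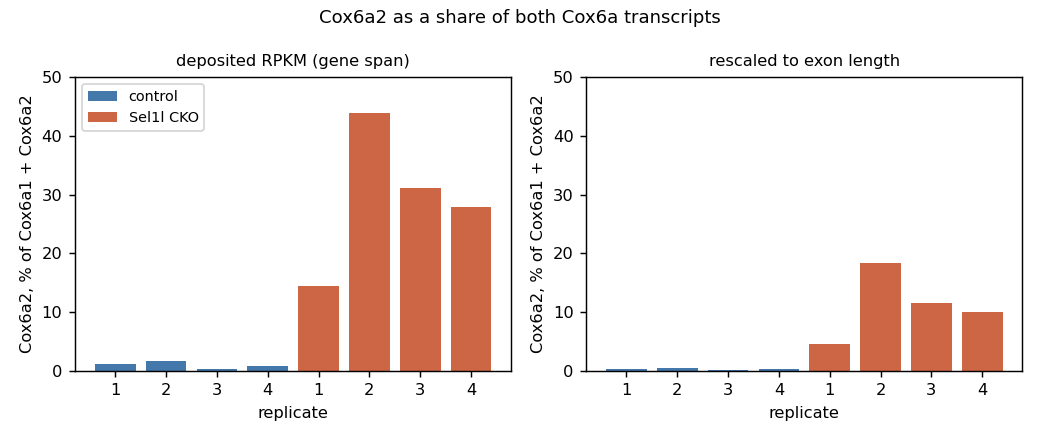
Cox6a2 as a percent of Cox6a1 + Cox6a2, 1 bar per library, from the deposited RPKM (left) and per exon length (right). Control libraries reach at most 1.58% and 0.461%, and Sel1l CKO libraries run from 14.4% to 43.9% and from 4.62% to 18.4%.

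Cox7a1, the muscle-type form of subunit 7A, did not show the Cox6a2 pattern. It measured 0.781, 0.563, 1.10 and 0.884 RPKM across the control libraries and 0.966, 0.630, 1.11 and 0.753 RPKM across the Sel1l CKO libraries. The groups overlapped throughout and held 243 and 241 reads in all. As a share of Cox7a1 + Cox7a2 per exon length it was 2.74 ± 0.638% in control and 2.46 ± 0.687% in Sel1l CKO libraries (SD, n = 4). Its mean over the 8 libraries was under 1 RPKM, so no difference was fitted.

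Cox7a2, the ubiquitous form, measured 20.3, 20.6, 22.0 and 20.6 RPKM across the control libraries and 27.8, 25.9, 22.7 and 22.1 RPKM across the Sel1l CKO libraries. The groups did not overlap, and the lowest Sel1l CKO library, replicate 4, lay just above the highest control library, replicate 3. The log2 difference was 0.23 ± 0.08 (SE), with 0.39 within replicates 1 and 2 and 0.07 within replicates 3 and 4. Cox7a2l measured 16.9, 19.0, 19.6 and 17.4 RPKM across the control libraries and 20.3, 18.5, 19.0 and 19.3 RPKM across the Sel1l CKO libraries. Its groups overlapped, and the log2 difference was 0.08 ± 0.07 (SE).

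Cox4i1 measured 52.9, 53.8, 59.2 and 55.05 RPKM across the control libraries and 60.6, 54.5, 49.4 and 46.5 RPKM across the Sel1l CKO libraries. The groups overlapped, with a log2 difference of -0.07 ± 0.09 (SE). Its partner Cox4i2 was at the edge of detection, with 1, 5, 0 and 0 reads in control replicates 1 to 4 and 0, 4, 0 and 1 reads in Sel1l CKO replicates 1 to 4. No change of Cox4i2 was detectable at this depth. Cox8a measured 65.5, 71.3, 61.1 and 68.9 RPKM across the control libraries and 74.9, 72.9, 59.8 and 62.2 RPKM across the Sel1l CKO libraries, with overlapping groups and a log2 difference of 0.01 ± 0.09 (SE).

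Several of these ubiquitous genes shared a split within the Sel1l CKO group. Cox6a1, Cox4i1, Cox7a2 and Cox8a were each higher in Sel1l CKO replicates 1 and 2 than in replicates 3 and 4, and Cox7a2l was not. The split was not particular to them. Cox5a, Cox5b, Cox6c, Cox7b, Cox7c and Ndufa4 showed it too, Cox6b1 and the mitochondrial subunit genes did not, and Cox6b2 and Sel1l showed the reverse. A term for replicates 1 and 2 against 3 and 4, shared by both genotypes, raised the calls over all genes from 344 to 525. It does not describe a split within the Sel1l CKO group alone, and the labels name no batch. For Cox6a1 the log2 difference from control came to 0.23 for replicates 1 and 2 alone and to -0.12 for replicates 3 and 4 alone, and for Cox4i1 it was 0.11 and -0.25. Cox6a2 did not follow this split, since its highest and lowest Sel1l CKO values were those of replicates 2 and 1.

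Of the 6 isoform genes with a mean of at least 1 RPKM, 1 lay past the threshold used for the whole table (adjusted p under 0.05, limma). It was Cox6a2, whose choice and passage of the minimum fixed that outcome, so it is no test. Of all 6512 genes tested, 5.28% were called, 4.27% higher and 1.01% lower. Both Cox6a2 and Cox7a2 lay above control in every Sel1l CKO library, as 9.15% of all genes tested did, and none lay below in every library, as 5.59% of all genes did (14.7% in either direction). Nothing is read from these counts. The median log2 difference was 0.07 over the 6 genes and 0.01 over all genes tested.

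Levels can be compared between genes only per length, so the members were ordered on RPKM per exon length. In control libraries the order was Cox6a1 (271 ± 19.9), Cox8a (265 ± 17.6), Cox4i1 (213 ± 10.8), Cox7a2l (153 ± 11.0), Cox7a2 (102 ± 3.85), Cox7a1 (2.89 ± 0.777), Cox6a2 (0.771 ± 0.415) and Cox4i2 (0.0410 ± 0.0629). Cox6a1 and Cox8a did not differ beyond their spread, and the other neighbours were separate in their ranges. In Sel1l CKO libraries Cox6a2 stood at 37.0 ± 24.5, above Cox7a1 at 3.005 ± 0.748 and below Cox7a2 at 120 ± 13.2 (SD, n = 4). Among 14906 genes on this scale Cox6a2 moved from rank 9661 in control to rank 1421 in Sel1l CKO libraries, while Cox6a1 was at rank 132 and rank 131.

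Among all 19 complex IV subunit genes listed, Cox6a2 was rank 18 in control libraries and rank 16 in Sel1l CKO libraries per exon length. Its Sel1l CKO mean of 37.0 was level with that of Cox6c, a ubiquitous subunit, at 37.0 ± 4.07. The other 11 subunit genes, listed for their membership of complex IV with earlier results of these data known, were set beside the members. All 11 had a mean of at least 1 RPKM and 0 were called at an adjusted p under 0.05 by limma, 0 by limma voom on the recovered reads, and 2 had an unadjusted p under 0.05. Their median log2 difference was 0.02, against 0.01 over all genes tested. The list had 14 genes, and Cox7b2, Cox8b and Cox8c were not analysed here.

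The 2 genes with an unadjusted p under 0.05 were Cox7b and mt-Co1, named after their values were seen. Cox7b, a small nuclear subunit, was at 20.9 ± 1.67 RPKM (control) and 26.0 ± 2.48 RPKM (Sel1l CKO) (log2 difference 0.31 ± 0.09 SE, adjusted p = 0.0861, limma). The mitochondrial gene mt-Co1, which encodes the catalytic subunit with the oxygen site, measured 3351, 3775, 5527 and 4095 RPKM across the control libraries and 3007, 2968, 3240 and 2745 RPKM across the Sel1l CKO libraries. The groups did not overlap (log2 difference -0.46 ± 0.14 SE, adjusted p = 0.0982, limma). mt-Co2 and mt-Co3, the other core subunits, had log2 differences of -0.34 ± 0.18 and -0.32 ± 0.18 (SE), with overlapping groups and the highest value in control replicate 3. Their control means were far lower, at 99.8 and 53.0 RPKM beside 4187 RPKM for mt-Co1. Near copies were sought only for the 8 isoform genes, so reads lost to copies of the mitochondrial genes were not examined, and these levels are uncertain.

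**Figure D3:**
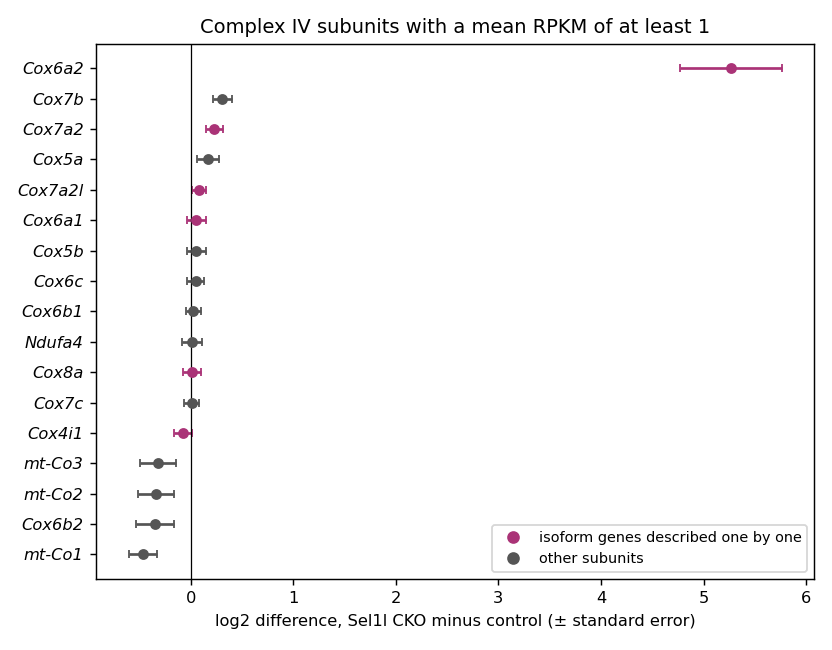
Log2 difference of RPKM + 0.1, Sel1l CKO minus control, for the 17 complex IV subunit genes with a mean of at least 1 RPKM, points with SE bars from limma, isoform genes in purple. Cox6a2 lies at 5.27, and the other 16 lie between -0.46 (mt-Co1) and 0.31 (Cox7b).

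Assembly factors insert haem and copper or build complex IV. Of 30 listed, 28 were in the table and 23 were tested. None passed (0 by limma, 0 by limma voom, 3 at an unadjusted p under 0.05), against 5.28% of all genes tested, and 1 passed without Sel1l CKO replicate 1. The median log2 difference was -0.01. The 3, named after their values were seen, were Sco2, a copper chaperone of the core that lay below control in every Sel1l CKO library (-0.53 ± 0.15 SE, adjusted p = 0.0802, limma), Higd2a (-0.20 ± 0.07) and Apopt1 (0.23 ± 0.08).

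Other muscle-type metabolic isoforms were looked at because Cox6a2 is one. Of 16 listed, 12 were in the table and 6 had a mean of at least 1 RPKM. None was higher, and 1 was lower, against 1.01% of all genes tested: Ldhb, the heart-type lactate dehydrogenase subunit, with means of 7.76 ± 0.654 RPKM (control) and 5.77 ± 0.619 RPKM (Sel1l CKO) (log2 difference -0.42 ± 0.09 SE, adjusted p = 0.0328, limma). That call was lost in 7 of 16 alternative fits, among them the fits without control replicate 2 (adjusted p = 0.0970), control replicate 3 (0.0944), control replicate 4 (0.0613), Sel1l CKO replicate 1 (0.0843) and Sel1l CKO replicate 2 (0.0706), and the adjusted p ran from 0.0185 to 0.0970 over the 16. The muscle creatine kinase Ckm was at most 0.00469 RPKM in any library. Pgam2, the muscle phosphoglycerate mutase, measured 2.02, 4.55, 3.45 and 2.95 RPKM across the control libraries and 3.30, 0.445, 3.11 and 2.82 RPKM across the Sel1l CKO libraries, lowest where Cox6a2 was highest.

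In a bulk sample, fewer cells of a type and less RNA per cell cannot be told apart, so markers of cells known for Cox6a2 or present in thymus were read beside it. Striated muscle markers summed to 2.98 to 4.19 RPKM over the control libraries and 2.53 to 3.88 RPKM over the Sel1l CKO libraries, mostly from Mylpf. Among the 26 such genes measured, 21 stayed under 0.1 RPKM in every library, and Myh1, Myh8, Myl2 and Myog were at 0 in all 8. Sums and cuts in this and the next paragraph use the RPKM as deposited, per gene with its introns. Long genes thus weigh little in them, and a low value may reflect gene length rather than few transcripts. Brown fat markers, 6 genes, summed to 0.466 to 0.517 and 0.287 to 0.485 RPKM, mostly from Dio2. Ucp1 was listed as a marker but was not among the genes measured, so this sum says little on brown fat. Neither the muscle nor the brown fat sum was above control in the Sel1l CKO libraries.

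Plasmacytoid dendritic cell markers, 13 genes in the table, summed to 56.5 to 71.8 RPKM over the control libraries and 38.0 to 60.7 RPKM over the Sel1l CKO libraries. Most of that sum was Bst2, and Klk1 and Cd209d stayed at or near 0. Siglech was listed as a marker but was not among the genes measured. Spib was at 7.42 to 10.6 RPKM in control libraries and at 4.95, 2.31, 5.96 and 6.15 RPKM across the Sel1l CKO libraries. Of the 4 genes tested in this list 2, Spib and Smim5, lay below control in every Sel1l CKO library, against 5.59% of all genes tested. By limma 0 were called. Tcf4, Irf8 and Itgax, under the minimum of 1 RPKM, also lay below control in every Sel1l CKO library. B and plasma cell markers, 12 genes, summed to 18.5 to 20.7 and 15.3 to 37.1 RPKM, mostly Mzb1 and Cd79b. Ms4a1 and Pax5 were near 0 in both groups, at most 0.0032 and 0.00114 RPKM in control libraries and 0 in every Sel1l CKO library. Mzb1 measured 12.5, 8.13, 10.3 and 10.9 RPKM across the control libraries and 29.4, 9.96, 21.8 and 19.5 RPKM across the Sel1l CKO libraries. Its ratio of means was 1.93 (log2 difference 0.85 ± 0.29 SE, adjusted p = 0.136, limma), and its lowest Sel1l CKO value was in replicate 2, where Cox6a2 was highest. Cd79b, the other of the 2 genes tested in this list, lay below control in every Sel1l CKO library, as 5.59% of all genes tested did. Its means were 9.07 ± 0.902 RPKM (control) and 6.89 ± 1.26 RPKM (Sel1l CKO) (log2 difference -0.40 ± 0.13 SE, adjusted p = 0.129, limma). Macrophage markers, 8 genes, summed to 3.64 to 6.44 and 2.05 to 4.10 RPKM, with Csf1r and Adgre1 near 0. Thymic epithelial markers, 8 genes, summed to 3.55 to 5.14 and 2.19 to 2.60 RPKM, mostly Epcam, which was lower in Sel1l CKO libraries (log2 difference -0.95 ± 0.13 SE, adjusted p = 0.00273, limma). The part of these levels in the Cox6a2 result was not tested.

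Reads from neighbouring or near-identical sequence were also counted up. The Cox6a2 gene, at chr7:128205435-128206387 on the minus strand of GRCm38, lies wholly within Itgad, an integrin gene on the opposite strand. Itgad was at 0.00486 to 0.0267 RPKM in the 8 libraries, over a span of 69441 bases. It held 53, 59, 56 and 31 reads in control replicates 1 to 4 and 18, 17, 23 and 61 reads in Sel1l CKO replicates 1 to 4. Where in Itgad these reads lay is not known, and their part in the low control Cox6a2 counts was not tested. At 90% identity over 80% of the coding sequence, Cox6a2 had 0 near copies among the annotated transcripts. Cox6a1, at chr5:115345642-115348981 on the minus strand, had 1, the pseudogene AC148174.2 (91.5% identity), and Cox7a2l at chr17:83501918-83517330 had 1, the pseudogene Gm6969 (97.7%), so reads of these genes and their copies may be split. Cox4i1, at chr8:120668222-120674207, overlaps Emc8 on the opposite strand over 352 bases and Gm20388 on its own strand over its whole length, so its counts are uncertain. Gm20388 and both pseudogenes were not among the genes measured, and the part of shared reads was not tested.

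The genes whose pattern over the 8 libraries was most like that of Cox6a2 were sought among all 6512, by the root mean square difference of log2(RPKM + 0.1) after subtracting each gene's control mean. The nearest were Asns, asparagine synthetase (0.82), Chac1, a glutathione-degrading enzyme (0.83), Trib3, a pseudokinase (0.86), Serpinh1, a collagen chaperone (0.88), and Bhlha15, a transcription factor of secretory cells (1.10). Their log2 differences of RPKM + 0.1 ran from 4.36 for Asns to 4.97 for Serpinh1, beside 5.27 for Cox6a2. Control means were 0.0137 (Chac1), 0.0854 (Trib3), 0.108 (Asns), 0.171 (Bhlha15) and 0.226 RPKM (Serpinh1), against 0.563 RPKM for Cox6a2. The added 0.1 shrinks the differences of the lowest genes most, so the sizes of these rises cannot be ranked from them. These genes were chosen for that likeness, so it is a description.

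The 5 genes differed in how they ranked the Sel1l CKO libraries. Cox6a2 stood 4.16, 6.45, 5.26 and 5.20 log2 units above its control mean in Sel1l CKO replicates 1 to 4. Asns stood at 3.25, 5.53, 4.19 and 4.48, and Trib3 at 2.99, 5.73, 4.46 and 4.36, so these genes too were highest in replicate 2 and lowest in replicate 1. Bhlha15 stood at 4.28, 3.58, 4.95 and 4.77 and Serpinh1 at 4.90, 4.22, 5.36 and 5.42, each lowest in replicate 2. Chac1 stood at 4.24, 4.66, 5.004 and 4.59, and varied least among the Sel1l CKO libraries.

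**Figure D4:**
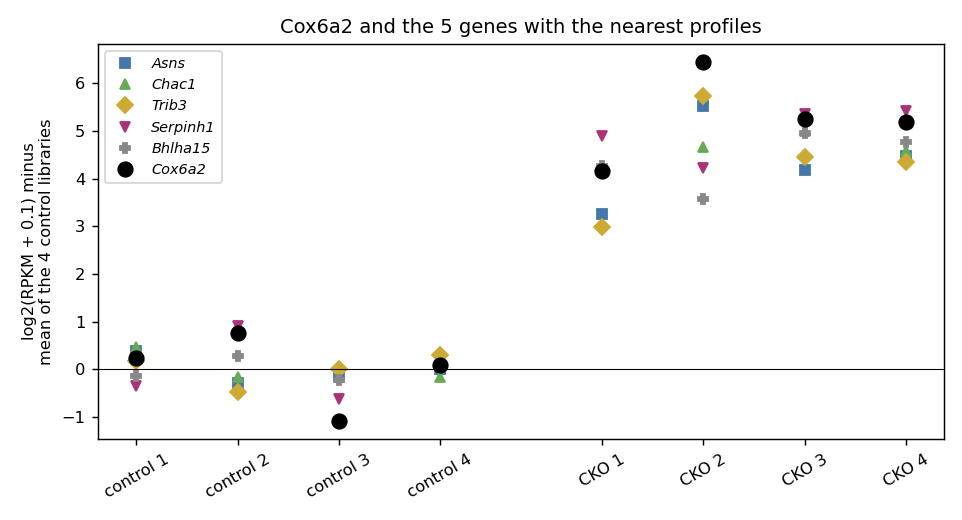
log2(RPKM + 0.1) minus the mean of the 4 control libraries, 1 point per gene and library, for Cox6a2 (black circles) and the 5 genes with the nearest profiles. Cox6a2, Asns and Trib3 peak in Sel1l CKO replicate 2 (6.45, 5.53 and 5.73), where Bhlha15 and Serpinh1 have their lowest Sel1l CKO values (3.58 and 4.22).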

How the data were processed

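RNA-seq values of 8 libraries, 4 per genotype by the labels, were analysed from a single table. The authors sorted DN3 thymocytes, made stranded mRNA libraries, aligned reads to GRCm38 with STAR 2.5.2b, counted them with HTSeq 2.7 (versions per the submitters' processing notes) and deposited RPKM values; how strand was set in counting is not given in the sources used here. With GENCODE M21 gene spans, introns included, RPKM values were whole reads (within 0.02 reads) for 11703 of 15430 genes (75.8%), against 3.03% with exon lengths, and a further 3203 lengths were solved from the values, so introns dilute the RPKM of long genes. Cox6a2 RPKM values were whole reads at a length of 931 bases.

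All 16538 genes entered, and those with a mean of at least 1 RPKM were fitted with limma 3.58.1 (R 4.3.3, trend) on log2(RPKM + 0.1), which understates changes of low genes, with Benjamini-Hochberg adjustment over 6512 genes and a two-sided threshold of 0.05. The reported values use all 8 libraries, with none imputed, and the alternatives leave out 1 at a time. Each SE of a log2 difference is the moderated one of limma, which draws on the spread of other genes, unless limma voom is named. The members and gene lists were chosen with earlier results of these data known. The rule for named genes covered every member, other subunits past the threshold, Sel1l, and the 5 profiles nearest to Cox6a2. It also covered up to 3 rises and 3 falls past the threshold in the assembly and muscle lists. Other genes named fall outside this rule, among them Ckm, Pgam2 and the cell type markers, and not all of them are marked. On simulated data for this contrast (6512 genes) the fit recovered 92 of 99 genes changed by 1 log2 unit and 101 of 101 changed by 2. Alternatives changed the pseudocount, filter, scaling or libraries, or added a replicate block or a term for replicates 1 and 2 against 3 and 4. Limma voom on recovered reads (485 of 11470 genes called) was added after seeing the data. Figures were drawn with matplotlib 3.10.9.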

Additional observations from a re-analysis of the deposited data

How the results depend on the processing

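The Cox6a2 log2 difference was positive in the 16 alternatives, from 4.87 to 5.64 when 1 library was left out, and fell to 3.97 with a pseudocount of 1. Cox6a2 was chosen for this rise and its groups lie far apart, so the sign was fixed in advance and is no test. The replicate block and the term for replicate sets cannot change the difference in this balanced design. Its mean share in Sel1l CKO libraries, 29.4% as deposited, was 11.1% per exon length and 9.30% per length of the first coding transcript, an alternative added after seeing the data. Calls over all genes, 344, became 218 at a minimum of 5 RPKM and 525 with a batch term for the first against the last replicate pairs, and lay between 244 and 314 without 1 library. Other subunits called lay between 0 and 1 without 1 library (1 without Sel1l CKO replicate 4), assembly factors from 0 to 1 (1 without Sel1l CKO replicate 1) and muscle-type isoforms, 1 otherwise, from 0 to 1, with 0 without a filter. The small differences of Cox6a1 and Cox8a turned sign when some libraries were left out, Cox6a1 from -0.0043 to 0.13 and Cox8a from -0.04 to 0.07, and Cox8a also under median-of-ratios scaling (-0.01). The causes were not tested.

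With the replicate number as a block 317 genes were called and 0 muscle-type isoforms (Ldhb, adjusted p = 0.0614 by limma), with the Cox6a2 difference at 5.27 and the other subunits and assembly factors called at 0, and the marker lists were not counted under the block. Same-numbered libraries correlated at 0.162, 0.0973, 0.445 and 0.00514 in their deviations from group means, and only replicate 3 of the control group correlated best with its own number, so the numbers were not taken to pair the libraries. Depth limits the control Cox6a2 level, which rests on 6 to 41 reads, and Cox4i2, on at most 5.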
